A study of Mus musculus with 21 samples.

Results

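Hormone-producing cells of the stomach lining and the transcription factors that form them were followed through 10 genes. Of these, 3 mark the products of endocrine cells: Ghrl (ghrelin), Sst (somatostatin) and Tph1 (tryptophan hydroxylase, the rate-limiting enzyme of serotonin synthesis outside the brain). The other 7 encode endocrine fate factors: Neurog3, Neurod1, Insm1, Nkx2-2, Pax6, Isl1 and Rfx6. They are 10 of the 22180 genes tested, and each had exactly 1 row of the value table that named only that gene. These genes and the gene lists used below were chosen by name with earlier results of these data known. Their shares of called genes, set beside those of all genes, are therefore a description.

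The study measured RNA on microarrays from mouse stomach corpus cells sorted into 3 gates by Lgr5GFP brightness (high, low and negative). Cells came from mice given tamoxifen (0.27 mg/g) 24 hours earlier, with 4 arrays per gate, or from uninjected controls, with 3 arrays per gate, which gives 21 arrays in 6 groups. The reporter allele, the age and sex of the mice and the number of mice per sort are not given in the sources used here, and the groups share the Lgr5GFP reporter. The design text calls the replicates technical and from separate sorting runs, so p-values measure only the spread between these samples. No vehicle group is among the samples and each run holds 1 treatment, so effects of tamoxifen, of being injected and of the run cannot be told apart. For the 3 control negative arrays 1 label field says low, while the title and the cell population field say negative, and the latter were followed.

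Endocrine cells are scattered singly through the gastric glands. In the corpus they include ghrelin-releasing X/A-like cells, somatostatin-releasing D cells, histamine-releasing enterochromaffin-like cells and a few serotonin-releasing enterochromaffin cells, while gastrin-releasing G cells belong to the antrum. Neurog3 starts the endocrine programme in a progenitor and is then switched off, and Neurod1, Insm1, Nkx2-2, Pax6, Isl1 and Rfx6 act after it, while hormone genes stay on in the mature cell. Ghrelin is acylated by the enzyme encoded by Mboat4 and raises appetite, and somatostatin restrains the release of gastrin, histamine and acid.

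Lgr5, whose reporter set the gates, ranked high, low, negative in both treatments with no overlap between gates. Arrays within a group correlated at a Pearson r of 0.944 or more, and of 0.991 at most. As a guide to background, the values of 1105 olfactory receptor genes had a median of 2.54 and the 95th percentile at 4.25, and a gene at or under 4.25 is called dim below. The mean of the parietal cell list over 8 genes ran from 5.30 (tamoxifen high 1) to 8.54 (control low 1) by array. Whether the corpus label held for every array was not tested. Gast, the gastrin gene of antral G cells, was high on many arrays. It lay between 10.28 and 12.66 on 9 arrays spread over all 6 groups (tamoxifen high 1, tamoxifen low 4, tamoxifen negative 1 and 2, control high 2 and 3, control low 2 and 3, control negative 3). On the other 12 arrays it lay between 4.87 and 7.61. Its values are given again below beside the genes that moved with it.

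The sequences before the transcription starts of Ghrl, Sst and Rfx6 are shown because these were the genes that passed a test of difference between gates. Each line holds the 250 bases before the start in RefSeq annotation of mouse build GRCm38.p6, read on the gene's own strand from 5′ to 3′. Capitals mark every match, on either strand, to 1 of 5 short motifs: the cAMP response element TGACGTCA, the TATA box TATAAA, the E-box CANNTG bound by factors of the Neurog3 and Neurod1 class, the homeodomain core TAAT, and the letters GTTGCC that RFX factors read. The windows lie at chr6:113719912-113720161 (minus strand, Ghrl), chr16:23890845-23891094 (minus strand, Sst) and chr10:51685268-51685517 (plus strand, Rfx6).
Ghrl: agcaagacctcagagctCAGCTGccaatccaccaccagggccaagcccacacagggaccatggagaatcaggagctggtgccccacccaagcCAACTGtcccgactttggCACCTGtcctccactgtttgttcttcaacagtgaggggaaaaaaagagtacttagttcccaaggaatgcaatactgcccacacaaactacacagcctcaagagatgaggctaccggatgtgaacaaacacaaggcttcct
Sst: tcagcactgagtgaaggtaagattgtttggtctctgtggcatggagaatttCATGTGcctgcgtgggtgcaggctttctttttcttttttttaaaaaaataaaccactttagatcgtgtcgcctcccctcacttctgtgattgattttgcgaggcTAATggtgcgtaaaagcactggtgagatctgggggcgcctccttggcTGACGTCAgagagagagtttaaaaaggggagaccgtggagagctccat
Rfx6: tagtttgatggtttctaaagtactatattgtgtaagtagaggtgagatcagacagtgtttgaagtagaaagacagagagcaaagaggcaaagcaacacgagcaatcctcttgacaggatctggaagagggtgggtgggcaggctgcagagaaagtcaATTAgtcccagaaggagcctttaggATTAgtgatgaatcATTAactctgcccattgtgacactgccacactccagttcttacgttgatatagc
The Ghrl window, which ends at the annotated 5′ end of the gene, held 3 E-boxes, 233, 158 and 140 bases before the start. Of 4 Ghrl windows it was the nearest to that end. The Sst window held the cAMP response element 48 bases before the start, the element through which cAMP is known to act on this gene, with 1 E-box at 199 and 1 TAAT core at 95 bases. The Rfx6 window held 3 homeodomain cores, read as ATTA on this strand, at 93, 68 and 54 bases. Its start lies 7758 bases inside the annotated gene, and that of Sst 498 bases inside. Among the 32851 windows of this length in the table, 1.55% held the cAMP response element, 66.2% an E-box, 54.9% the homeodomain core, 12.4% the TATA box and 10.4% the RFX letters, so the short motifs are common and a match is a description of the letters. The annotated genes lie at chr6:113716119-113719911 (Ghrl), chr16:23889573-23891342 (Sst) and chr10:51677760-51730429 (Rfx6). Windows were found for 9 of the 10 genes, with none for Insm1.

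Ghrelin transcript was strong in negative cells, weaker and uneven in high cells. In control mice Ghrl read 6.59, 8.10 and 7.82 in high cells, 10.65, 12.36 and 11.74 in low cells, and 11.30, 11.64 and 11.60 in negative cells. In tamoxifen mice it read 11.16, 7.76, 8.91 and 6.63 in high cells, 10.95, 10.73, 6.76 and 10.59 in low cells, and 12.52, 12.84, 12.59 and 12.49 in negative cells. The 4 tamoxifen negative arrays were the highest of all 21, above every control negative array, while tamoxifen low 3 stood far below the other 3 of its group and the tamoxifen high arrays were widely spread. The group means fell in the order tamoxifen negative 12.61 (SD 0.16, n = 4), control low 11.58 (SD 0.87, n = 3), control negative 11.51 (SD 0.19, n = 3), tamoxifen low 9.76 (SD 2.00, n = 4), tamoxifen high 8.62 (SD 1.94, n = 4) and control high 7.50 (SD 0.80, n = 3). Of the neighbours in that order, control low and control negative, tamoxifen low and tamoxifen high, and tamoxifen high and control high had overlapping arrays.

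Somatostatin transcript followed a like order. In control mice Sst read 5.41, 5.83 and 7.91 in high cells, 9.85, 10.82 and 10.38 in low cells, and 9.62, 9.74 and 9.82 in negative cells. In tamoxifen mice it read 9.72, 5.21, 9.08 and 6.18 in high cells, 9.57, 9.71, 9.67 and 9.51 in low cells, and 11.54, 11.95, 11.32 and 10.53 in negative cells. Tamoxifen high cells were split, with arrays 1 and 3 about as high as the low gate and arrays 2 and 4 as low as control high cells, whereas the tamoxifen low arrays were nearly identical. The means fell in the order tamoxifen negative 11.34 (SD 0.60, n = 4), control low 10.35 (SD 0.48, n = 3), control negative 9.73 (SD 0.10, n = 3), tamoxifen low 9.62 (SD 0.09, n = 4), tamoxifen high 7.55 (SD 2.19, n = 4) and control high 6.38 (SD 1.34, n = 3). Neighbouring groups in that order overlapped, except control low and control negative. These are bulk samples, in which fewer cells of a type and less RNA per cell cannot be told apart.

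Tph1 was dim on 11 of 21 arrays and its pattern lay in single arrays. In control mice it read 4.12, 4.02 and 3.74 in high cells, 3.61, 3.77 and 6.39 in low cells, and 4.71, 4.98 and 4.45 in negative cells. In tamoxifen mice it read 6.88, 3.42, 3.80 and 3.84 in high cells, 3.49, 3.62, 3.66 and 5.86 in low cells, and 5.59, 5.28, 4.50 and 4.29 in negative cells. All 7 negative arrays lay above the guide, as did 1 array of each of 3 other groups (control low 3, tamoxifen high 1, tamoxifen low 4), and those single arrays were the highest of all.

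**Figure D1:**
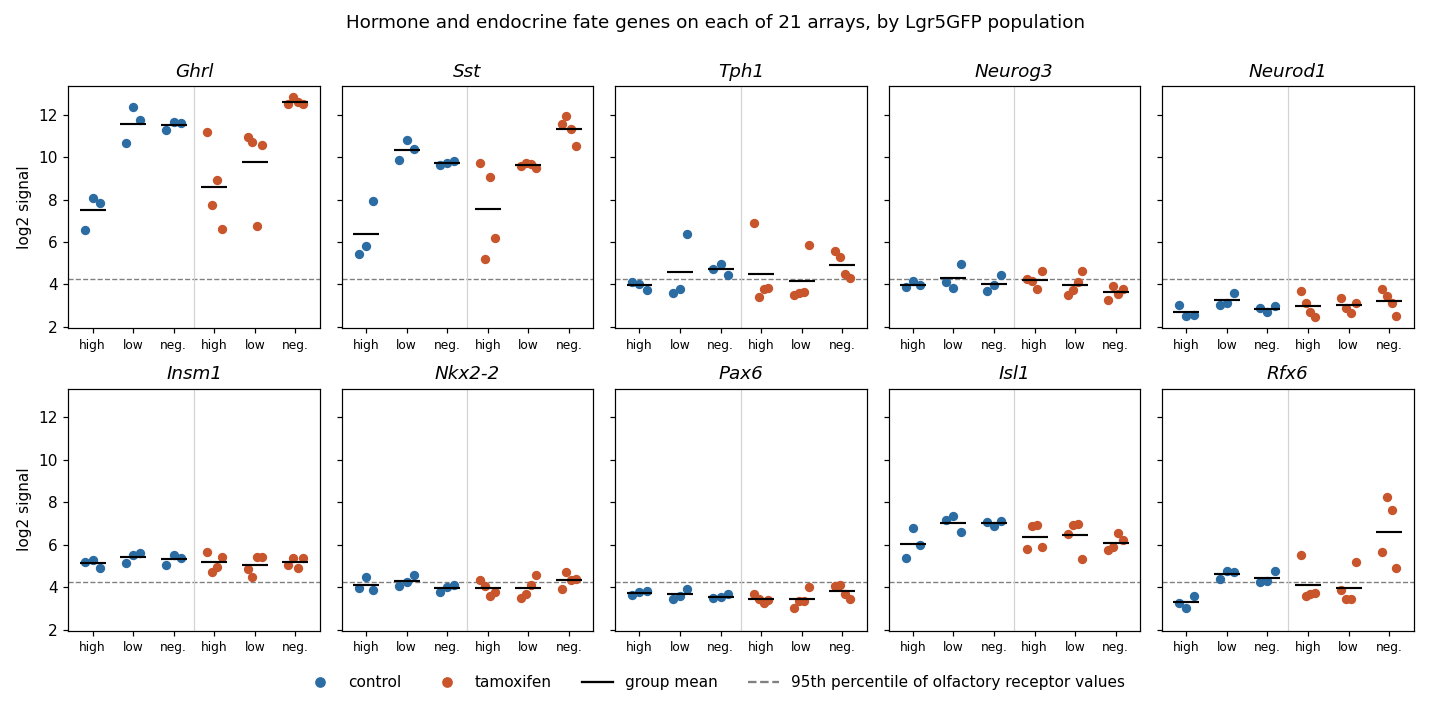
Log2 signal (y axis) of each of the 10 genes on each of the 21 arrays, by Lgr5GFP gate (x axis) and treatment (colour). Horizontal bars are group means and the dashed line is the 95th percentile of olfactory receptor values, 4.25. Ghrl and Sst sit lowest in control high cells and highest in tamoxifen negative cells, Rfx6 reaches 8.26 in tamoxifen negative cells, and Neurod1 and Pax6 stay under the dashed line on every array.

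Among the fate factors, Rfx6, a winged-helix factor that acts downstream of Neurog3 and is kept in mature endocrine cells, varied most between groups. In control mice it read 3.23, 3.04 and 3.60 in high cells, 4.37, 4.76 and 4.73 in low cells, and 4.23, 4.30 and 4.76 in negative cells. In tamoxifen mice it read 5.51, 3.56, 3.67 and 3.71 in high cells, 3.86, 3.43, 3.45 and 5.16 in low cells, and 5.67, 8.26, 7.61 and 4.91 in negative cells. The 4 tamoxifen negative arrays spread over more than 3 log2 units yet all lay above the control negative arrays, and control high cells were dim throughout. Its means fell in the order tamoxifen negative 6.61 (SD 1.58), control low 4.62 (SD 0.22), control negative 4.43 (SD 0.29), tamoxifen high 4.11 (SD 0.93), tamoxifen low 3.97 (SD 0.82) and control high 3.29 (SD 0.29), with overlap between neighbours in every step but the first.

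Isl1, a LIM homeobox factor of several hormone cell types, was above the guide on all 21 arrays. It read 5.39, 6.79 and 5.97 in control high cells, 7.18, 7.34 and 6.60 in control low cells, and 7.06, 6.89 and 7.13 in control negative cells. With tamoxifen it read 5.79, 6.87, 6.95 and 5.90 in high cells, 6.49, 6.94, 6.98 and 5.32 in low cells, and 5.74, 5.91, 6.53 and 6.22 in negative cells. In negative cells the tamoxifen arrays all lay below the control arrays, opposite in sign to Ghrl, Sst and Rfx6 in the same gate.

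The remaining 5 fate factors gave little signal or little difference. Insm1, a zinc-finger factor that drives endocrine differentiation, was above the guide on all 21 arrays, from 4.49 to 5.66, with group means between 5.04 (tamoxifen low) and 5.41 (control low). Neurog3 was above the guide on 5 arrays and ran from 3.27 to 4.96, the highest being control low 3. Nkx2-2 was above it on 7 arrays and ran from 3.47 to 4.71, the highest being tamoxifen negative 2. Neurod1, from 2.47 to 3.77, and Pax6, from 3.02 to 4.10, were dim on all 21 arrays, so nothing can be read about their level beyond that bound. A dim probe gives only an upper bound, and absence of the transcript cannot be told from it.

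Differences between gates in control mice concerned the hormone genes. Ghrl was lower in high than in low cells by a log2 difference of -4.08 (SE 0.94, 16.9-fold, limma adjusted p = 0.029), and lower than in negative cells by -4.01 (SE 0.94, 16.1-fold, adjusted p = 0.0058). Sst was lower in high than in low cells by -3.96 (SE 0.81, 15.6-fold, adjusted p = 0.015) and than in negative cells by -3.35 (SE 0.81, 10.2-fold, adjusted p = 0.0076). In all 4 of these differences the groups did not overlap. Thus 2 of 10 genes passed in high against low cells, where 1.34% of all genes tested passed, and 2 of 10 in high against negative cells, where 12.3% passed. The arrays did not overlap for 4 of 10 genes in the first comparison (16.1% of all genes) and for 5 of 10 in the second (33.4%), lower in high cells each time. Neurod1 among the 4 was dim on every array, and Rfx6 and Tph1 among the 5 were dim on all control high arrays, so their order carries little. Isl1 in high against negative cells was at -0.98 (95% interval -1.82 to -0.13, adjusted p = 0.14), which passed with the sorting run as a fixed block (adjusted p = 0.032) and not with it as a random block (adjusted p = 0.11). Rfx6 was dim on all 3 control high arrays, at least 1.13-fold below negative cells, and did not pass (adjusted p = 0.34). With only the groups compared, Rfx6 (limma adjusted p = 0.0053) and Tph1 (0.021) passed there, although both were dim on all control high arrays. In that setting Rfx6 also passed in high against low cells (0.035). Between low and negative control cells none of the 10 genes passed with limma and none had an unadjusted p under 0.05, while 5.27% of all genes passed. The arrays did not overlap for 2 of 10, Sst and the dim Neurod1, beside 27.1% of all genes. There the Ghrl difference was 0.07 (-1.88 to 2.02) and that of Sst 0.62 (-1.07 to 2.31), intervals wide enough to hold a 2-fold difference either way.

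The calls in high against low control cells rested on few arrays. That of Ghrl was lost without control high 1 (adjusted p = 0.22), control high 2 (0.06), control low 2 (0.18) or control low 3 (0.094) and with a trended, robust variance (0.071), and that of Sst without control high 1 (0.13), control high 2 (0.068) or control low 2 (0.09). Against negative cells, the Sst call was lost without control high 1 (adjusted p = 0.055), and the Ghrl call held under every setting tried.

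Other endocrine products in control mice gave a mixed picture. Of 24 granule and prohormone genes, 2 rose and 3 fell in high against negative cells (median -0.04, all genes 0.04), where 12.3% of all genes passed in either direction. Chga, which encodes the granule protein chromogranin A, fell by 3.08 (adjusted p = 0.0099), and Snap25, a membrane fusion protein, by 1.86 (adjusted p = 0.0049). Rab3b, a vesicle small GTPase, rose by 1.90 (adjusted p = 0.00048). Of 13 monoamine genes none rose and 3 fell, among them Hdc, the histamine-forming enzyme, at -2.96 (adjusted p = 0.00013), and Slc18a2, the vesicular monoamine transporter, at -3.83 (adjusted p = 9.2e-06). Of 24 other endocrine fate factors 3 rose and none fell, a share close to the 12.3% of all genes that passed, including St18 at 2.59 (adjusted p = 0.0012) and Prox1 at 2.36 (adjusted p = 0.0061). High cells also carried the tuft cell list, 9 of 9 measured markers higher than in negative cells (median 3.45, all genes 0.04). Of 6 surface pit cell markers 5 were lower (median -3.77), and of 8 parietal cell markers 2 were lower. The part of these other cell types in the Ghrl and Sst differences was not tested.

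The same 2 hormones were lower in high than in negative cells after tamoxifen. Ghrl differed by -3.99 (SE 0.81, 15.9-fold, limma adjusted p = 0.0026) and Sst by -3.79 (SE 0.70, 13.8-fold, adjusted p = 0.0013), with no overlap of the arrays. Rfx6 differed by -2.50 (SE 0.56, limma adjusted p = 0.0059). Its negative mean lay 5.16-fold above the guide, while the high mean and 3 of the 4 high arrays were dim. The groups overlapped because tamoxifen high 1 read 5.51, so 5.16-fold is not a strict lower bound. Thus Ghrl, Sst and Rfx6 passed, 3 of 10 genes, where 10.3% of all genes passed, and 2 of 10 had no overlap, beside 10.9% of all genes. The tamoxifen high arrays differed so much that the size depended on 1 array: without tamoxifen high 1 the Ghrl difference was -4.84 and without tamoxifen high 4 it was -3.33, and Sst ran from -4.51 without tamoxifen high 1 to -3.01 without tamoxifen high 2. All 3 calls held without any single array. With only the 2 groups in the fit, that of Rfx6 was lost (adjusted p = 0.085).

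In low cells after tamoxifen the means of Ghrl and Sst lay between those of the other gates, while that of Rfx6 was below both. Against negative cells Rfx6 differed by -2.64 (SE 0.56, limma adjusted p = 0.012) and was the 1 gene of 10 to pass, where 2.24% of all genes passed. Its negative mean lay 5.16-fold above the guide, while the low mean and 3 of 4 low arrays were dim. As tamoxifen low 4 was above the guide, 5.16-fold is not a strict lower bound for Rfx6. Its groups overlapped through tamoxifen low 4 at 5.16, and the call was lost without tamoxifen low 2 (adjusted p = 0.056), without tamoxifen negative 3 (0.067) or with only the groups compared (0.075). Ghrl at -2.85 (95% interval -4.54 to -1.17, adjusted p = 0.076) and Sst at -1.72 (-3.18 to -0.26, adjusted p = 0.28) did not pass although no array overlapped, which held for these 2 of 10 genes and for 7.42% of all. Between high and low tamoxifen cells none of the 10 passed with limma, where 3.22% of all genes did, and 1 had an unadjusted p under 0.05. None of the 10 was free of overlap, beside 7.45% of all genes. The lowest p was that of Sst, at -2.07 (-3.53 to -0.61, adjusted p = 0.12), which passed at -2.79 without tamoxifen high 1 (adjusted p = 0.013).

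**Figure D2:**
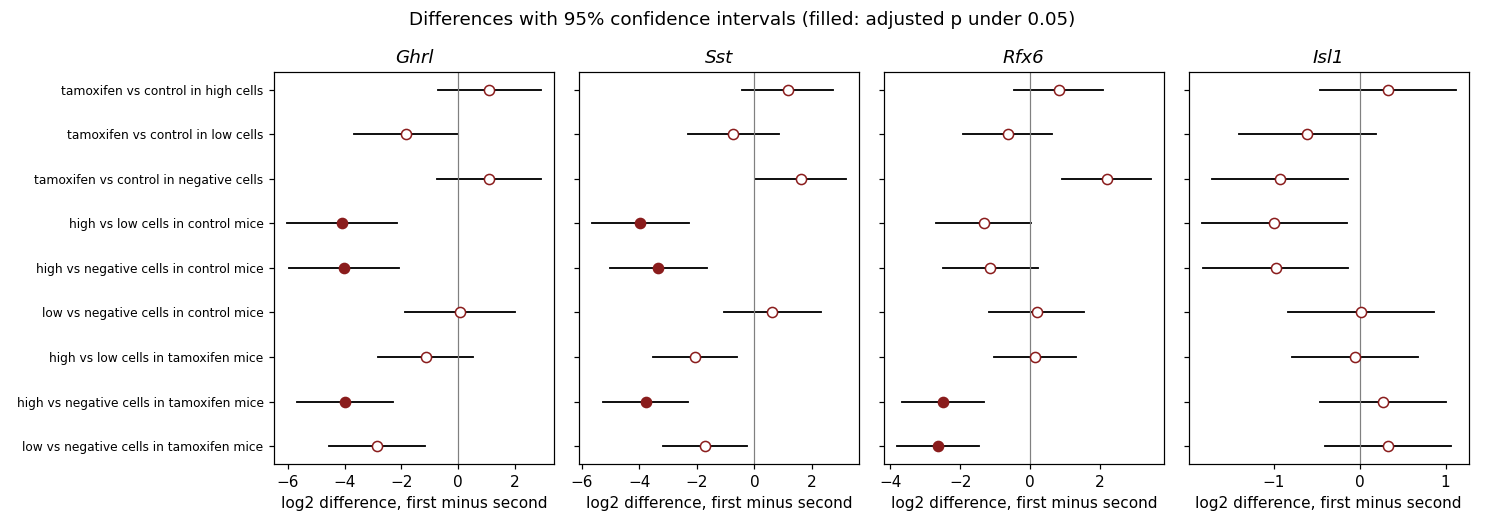
Log2 differences (x axis) of Ghrl, Sst, Rfx6 and Isl1 in 9 comparisons (y axis), with 95% confidence intervals from the limma model as lines. Filled points had an adjusted p under 0.05. The filled points are the 8 differences that passed, all of them below 0 and all between gates, and every tamoxifen against control point is open.

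Tamoxifen against control within a gate gave no called gene among the 10. With limma, 0 of 10 passed in high cells (2.73% of all genes passed), 0 in low cells (8.32%) and 0 in negative cells (2.32%), and the numbers with an unadjusted p under 0.05 were 0, 1 and 3. In negative cells Rfx6 came nearest, at 2.19 (95% interval 0.92 to 3.46, adjusted p = 0.065), followed by Isl1 at -0.92 (-1.72 to -0.13, adjusted p = 0.29) and Sst at 1.61 (0.03 to 3.18, adjusted p = 0.39), with Ghrl at 1.10 (-0.73 to 2.92, adjusted p = 0.69). The arrays of these 4 genes did not overlap between treatments, 3 higher and 1 lower with tamoxifen, beside 15.3% of all genes in either direction. Rfx6 passed with array weights (2.41, adjusted p = 0.0032) and without tamoxifen negative 4 (2.75, adjusted p = 0.0055). With only the 2 negative groups in the fit, Ghrl (adjusted p = 0.0085), Sst (0.022) and Isl1 (0.046) passed and Rfx6 did not.

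In low cells all 10 genes had values below 0, with a median of -0.40 beside 0.01 for all genes. None passed, Neurod1 and Pax6 were dim on every array, and Neurog3 and Nkx2-2 were dim on most. The signs counted here and in high cells therefore carry little. Ghrl at -1.83 (95% interval -3.65 to -0.0024, adjusted p = 0.23) took much of its size from tamoxifen low 3, without which it was -0.83, and Sst was at -0.73 (-2.31 to 0.85, adjusted p = 0.64). Sst was the 1 gene of 10 with no overlap there, beside 21.2% of all genes. In high cells 8 of 10 values were above 0 with a median of 0.32, Ghrl at 1.12 (-0.71 to 2.94) and Sst at 1.16 (-0.42 to 2.74), and the arrays overlapped for all 10 (10.4% of all genes had none). The 3 interaction tests, which ask whether the tamoxifen difference itself differed between gates, called none of the 10 with limma, and 1, 1 and 3 had an unadjusted p under 0.05. They called 0.0271% of all genes for high minus low, 0.248% for high minus negative and 0.839% for low minus negative cells. For low minus negative cells the values were -2.92 for Ghrl (-5.50 to -0.34, adjusted p = 0.44), -2.34 for Sst (-4.57 to -0.11, adjusted p = 0.51) and -2.83 for Rfx6 (-4.63 to -1.04, adjusted p = 0.17).

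Genes that process or release ghrelin did pass in the tamoxifen comparison. Of 11 measured, 4 rose in negative cells with tamoxifen and none fell (median 0.12, all genes -0.00), beside 2.32% of all genes. Mboat4, the ghrelin acylating enzyme, rose by 1.93 (limma adjusted p = 0.013). Cpe, a carboxypeptidase that trims prohormones, rose by 2.44 (0.0095), and the lactate receptor gene Hcar1 by 0.75 (0.034). The fatty acid receptor gene Ffar4 also rose (0.024). It was dim by its mean in control negative cells, and its tamoxifen mean lay 3.57-fold above the guide. Mboat4 read 4.83, 5.58 and 5.36 in control negative cells and 6.11, 8.30, 7.90 and 6.44 in tamoxifen negative cells, higher on each tamoxifen array. After tamoxifen 4 of the 11 were lower in low than in negative cells, beside 2.24% of all genes, with Mboat4 at -2.81 (adjusted p = 0.00014) and Pcsk1, which encodes a prohormone convertase that cleaves proghrelin, at -3.54 (adjusted p = 0.0016). The list did not follow Ghrl between all gates. In control mice 3 of the 11 were higher and none lower in high than in negative cells, beside 12.3% of all genes. In low against negative control cells 2 were higher and none lower, beside 5.27%. After tamoxifen 2 were higher and 3 lower in high than in negative cells, beside 10.3%. In high against low tamoxifen cells 3 were higher and none lower, beside 3.22%. In low cells 1 rose with tamoxifen (Ffar4) and 4 fell, beside 8.32% of all genes, among them Gnat3 and Gper1. Gnat3 encodes a taste G protein that tuft cells also carry, and 7 of 9 tuft cell markers fell in the same comparison (median -2.82). Its part in the result was not tested.

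The wider endocrine cell products moved in the negative gate too. Of the 24 granule genes, 6 rose and none fell in negative cells with tamoxifen (median 1.22, all genes -0.00), where 2.32% of all genes passed, with Scg5, a chaperone of prohormone convertase, at 2.44 (adjusted p = 0.00059) and Snap25 at 2.03 (0.0074). Scg5 read 4.93, 4.91 and 5.36 in control negative cells against 7.44, 7.98, 7.76 and 6.84 with tamoxifen, and the groups were far apart. Of the 13 monoamine genes 5 rose and none fell (median 0.85), with Hdc at 2.13 (adjusted p = 0.0076). Slc6a4, the serotonin transporter gene, is among the 5 (adjusted p = 0.013), but it was dim on all 3 control negative arrays (mean 3.54) and averaged 4.38 with tamoxifen, which bounds its difference at 1.10-fold or more. Mast cells also express Hdc, and 5 of 12 mast cell markers fell in this comparison while none rose. Mcpt2 was at -3.29 (limma adjusted p = 0.00013). Cpa3 also fell (0.00059), with a control mean 2.84-fold above the guide and a dim mean with tamoxifen. The mast cell list mean ran from 4.73 to 5.26 in control negative arrays and from 3.54 to 4.11 in tamoxifen negative arrays. In the same comparison 3 of 6 mucous neck and 3 of 8 parietal cell markers fell and none rose, and 1 rose and none fell of 8 chief cell, 7 immune cell, 10 enteric neuron and glia, and 6 pancreatic markers each. No call was made among 9 tuft cell, 6 surface pit cell, 8 fibroblast and smooth muscle, and 6 endothelial markers. The part of these cell types in the result was not tested.

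In low cells with tamoxifen 3 of the 24 granule genes fell and none rose (median -0.72, all genes 0.01), where 8.32% of all genes passed, and 3 of 13 monoamine genes fell while 1 rose, Hdc at -2.79 (adjusted p = 0.00025) and Slc18a2 at -2.44 (0.00061). Hdc read 7.62, 8.40 and 8.10 in control low cells and 5.31, 5.32, 4.70 and 5.69 in tamoxifen low cells, with no overlap. In the same comparison 7 of 9 tuft, 4 of 8 parietal, 3 of 6 pancreatic, 2 of 6 mucous neck, 2 of 8 chief and 2 of 12 mast cell markers fell and none of these rose. Of 7 immune cell markers 1 rose and 1 fell, and of 6 endothelial markers 1 fell. Of 6 surface pit cell and 10 enteric neuron and glia markers 1 each rose and none fell. No call was made among 8 fibroblast and smooth muscle markers. The part of these cell types in the result was not tested. The interaction of low minus negative cells called 8 granule genes, all below 0 (median -2.09, all genes 0.03), and 3 monoamine genes, all below 0, beside 0.839% of all genes. Hdc was at -4.91 (SE 0.59, adjusted p = 0.00021) and Scg5 at -3.28 (SE 0.50, adjusted p = 0.0021). Ghrl, Sst and Rfx6 had values of the same sign in that interaction that did not pass. After tamoxifen, 16 of 24 granule genes were lower in high than in negative cells (median -1.22) and 16 were lower in low than in negative cells (median -1.51), with none higher in either, beside 10.3% and 2.24% of all genes. Chga was 29.2-fold lower in high cells (log2 difference -4.87, limma adjusted p = 8.1e-05). Slc18a2 was also lower there (2.3e-09), with a negative mean 50.8-fold above the guide and a dim mean in high cells.

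**Figure D3:**
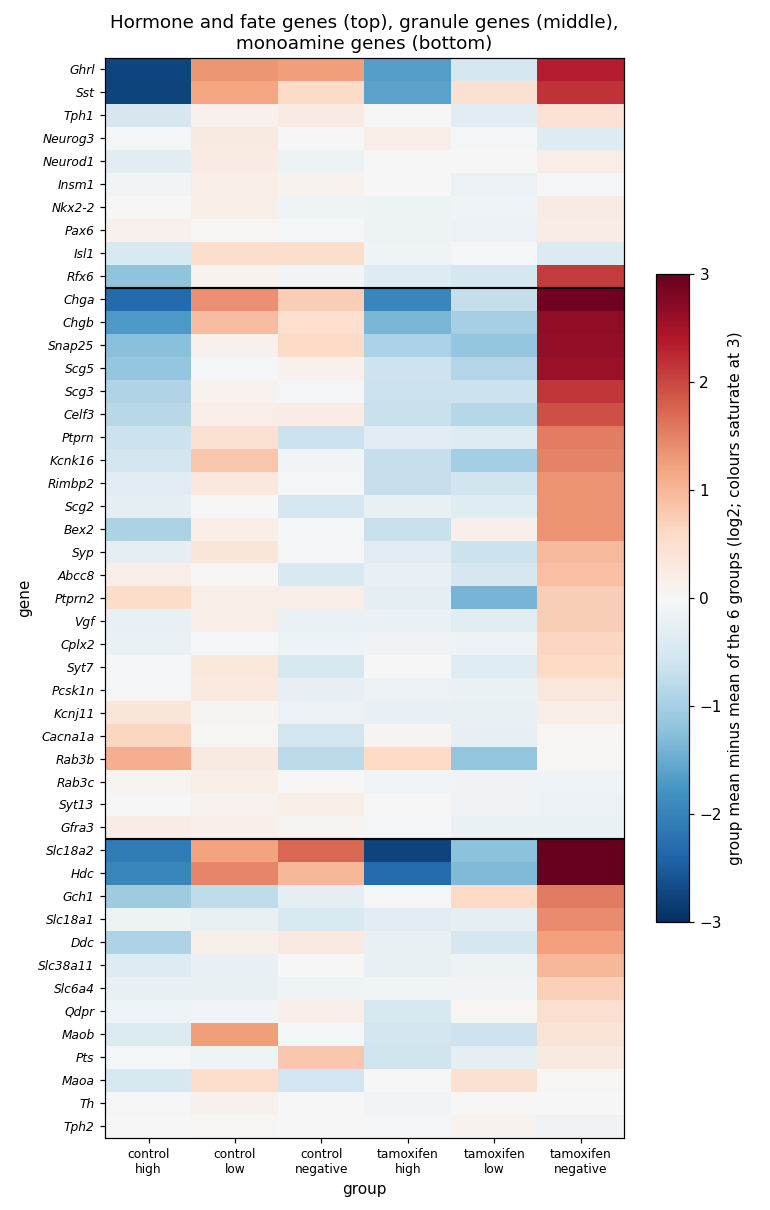
Group mean minus the mean of the 6 group means (colour, log2 units, saturating at 3) for the 10 hormone and fate genes, 24 granule genes and 13 monoamine genes (rows) in the 6 groups (columns). Tamoxifen negative cells are red in most granule and monoamine rows, Ghrl and Sst are red there and blue in both high gates, and the top rows other than Ghrl, Sst and Rfx6 are pale.

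Of the other endocrine fate factors, 24 of 28 listed were measured and St18 and Prox1 changed in opposite directions in 2 gates. They were the 2 of 24 that passed with tamoxifen in negative cells, beside 2.32% of all genes. In low cells they were again the 2 of 24 that passed, a share close to the 8.32% of all genes. The low minus negative interaction called 2 of 24, beside 0.839% of all genes. With tamoxifen both rose in negative cells, St18 by 1.98 (adjusted p = 0.025) and Prox1 by 2.04 (0.039), and both fell in low cells, where both were dim on all 4 tamoxifen arrays, St18 at least 2.49-fold (0.019) and Prox1 at least 2.32-fold (0.028). St18 read 4.55, 5.03 and 5.05 in control negative cells against 6.77, 7.76, 7.14 and 5.75 with tamoxifen, and 5.88, 5.19 and 5.61 in control low cells against 3.72, 3.33, 4.24 and 3.85. The interaction called both (adjusted p = 0.0074 for St18 and 0.012 for Prox1), and its size rests on those dim arrays. Both genes were also higher in high than in negative control cells, where the tuft cell list was highest, and the part of tuft cells was not tested.

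Receptors that read these hormones and their partners were tested as a list of 19. In negative cells with tamoxifen 1 of 19 rose and 1 fell, beside 2.32% of all genes. Cckbr, the gastrin receptor gene, rose by 2.03 (limma adjusted p = 0.011), and Glp1r, the incretin receptor gene, fell by 1.92 (0.021). After tamoxifen 3 of 19 were higher and 3 lower in high than in negative cells, beside 10.3% of all genes. In low against negative cells 1 was higher and 2 were lower, beside 2.24% of all genes. Sstr2, a somatostatin receptor gene, was among those lower, at -1.69 in high cells (limma adjusted p = 5.9e-05) and -1.59 in low cells (0.00024). Among 20 other gut hormones and peptides measured, 1 fell and none rose with tamoxifen in high cells, beside 2.73% of all genes. In low cells also 1 fell and none rose, beside 8.32% of all genes. Each time it was Nucb2, the nesfatin precursor gene, which fell in high cells by 1.02 (limma adjusted p = 0.037) and in low cells by 1.46 (0.0011). Of 17 Notch components, a pathway that restrains endocrine fate, 2 were higher and none lower in high than in negative cells in each treatment, close to the share of all genes that passed (12.3% in control and 10.3% in tamoxifen mice). Lfng, which modifies Notch, was higher there by 1.49 (adjusted p = 0.00014) and 1.42 (8.6e-05).

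Gast varied with several of the 10 genes, and its companions Nkx6-3 and Pdx1 were chosen after their values were seen. Over the deviations of 21 arrays from their 6 group means, Gast had a Pearson r of 0.73 with Tph1, 0.61 with Rfx6, 0.52 with Sst, 0.50 with Ghrl and -0.44 with Isl1. Gast also had an r of 0.45 with Insm1. With genes dim on most or all arrays, Gast had an r of 0.55 for Nkx2-2, 0.54 for Neurod1 and 0.47 for Neurog3. Its r of 0.84 with Pax6 describes variation of a probe that was dim on every array, and no level of Pax6 can be read from it. Its r with the antral homeobox genes was 0.89 for Nkx6-3 and 0.85 for Pdx1. The 3 arrays with the highest Tph1 (tamoxifen high 1 at 6.88, control low 3 at 6.39 and tamoxifen low 4 at 5.86) also had the highest Gast, 12.66, 12.54 and 12.40. High Gast also came with dim Tph1, in control high 3 (Gast 12.04, Tph1 3.74), control high 2 (10.43 and 4.02) and control low 2 (10.28 and 3.77). The r values are correlations across arrays that share runs and amplification, given as a description.

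With the Gast level as a covariate in the fit, an alternative added after the data were seen, the Ghrl difference of high minus negative cells was -4.41 in control mice (limma adjusted p = 0.0011) and -3.61 (adjusted p = 0.003) in tamoxifen mice, and that of Sst -3.70 (adjusted p = 0.0013) and -3.44 (adjusted p = 0.0013). Tamoxifen differences in negative cells varied more over the settings that kept every array, this covariate among them. Ghrl ran from 0.71 to 1.25, Sst from 1.26 to 1.86 and Rfx6 from 1.86 to 2.41. With the covariate none of these passed, and the part of Gast in any difference was not tested.

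**Figure D4:**
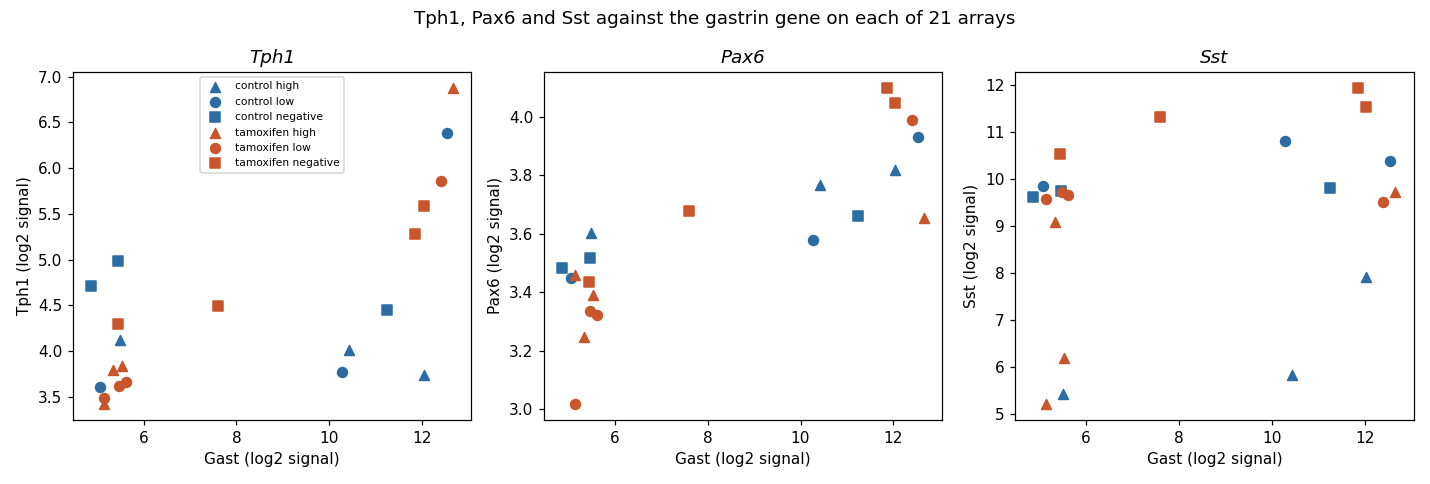
Log2 signal of Tph1, Pax6 and Sst (y axes) against that of Gast (x axis) on each of the 21 arrays, by treatment (colour) and gate (symbol). Gast falls into 9 arrays between 10.28 and 12.66 and 12 between 4.87 and 7.61, and the 3 arrays with the highest Tph1 lie at the right end of the Gast axis.

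Within groups the 10 genes did not vary as a single block. Over the same deviations, Ghrl and Sst had an r of 0.56, Tph1 and Pax6 0.74, Neurog3 and Nkx2-2 0.77, and Tph1 and Isl1 -0.70. Among the 12488 genes with a mean above the guide, the 3 most like Ghrl over the 21 arrays were Higd1a (r = 0.89), Blcap (0.84) and Snhg10 (0.83), and those most like Sst were Mios (0.88), Meis2 (0.88) and Mtx3 (0.87). For Rfx6 they were Reg3b (0.91), Kcnh6 (0.88) and Lbp (0.88), and for Tph1 Gpx3 (0.93), Pla2g5 (0.92) and Gprc5b (0.89). Isl1 was most like Nr2f2 (0.89), Fbxo33 (0.85) and Car9 (0.82), and Pax6 like Fgl2 (0.84), Gast (0.84) and Pla2g5 (0.82). Insm1 was most like Ush1g (0.93), Mir5103 (0.88) and Rbm20 (0.84), Neurog3 like 3110021A11Rik (0.85), Kcnmb3 (0.83) and Plppr4 (0.81), Neurod1 like Ttc39b (0.88), Tmem87a (0.85) and Cast (0.85), and Nkx2-2 like Hdhd5 (0.78), 1700003D09Rik (0.78) and Acta1 (0.77). The points share runs and amplification, and the 3 are the extremes of many genes searched. Neurod1 and Pax6 were dim on every array and Neurog3 and Nkx2-2 on most, so their r values describe variation at or near background.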

How the data were processed

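Total RNA of 21 sorted samples was amplified, biotin labelled and hybridised to 1-colour microarrays, per the labels' protocols. The deposited table holds log2 values, and the submitters' processing notes name RMA, oligo, R 3.2.3 and limma 3.26.8. The authors' genome build is not given in the sources used here. Of 41345 rows, 23521 named exactly 1 gene in the platform annotation, 1814 several, and 16010 were not listed. The brightest row per gene by mean over 21 arrays was kept, which gave 22180 genes. Array medians ran from 3.95 to 4.25, and the number of arrays limits the precision. A linear model over the 6 groups was fitted in limma 3.58.1 (R 4.3.3), with 15 residual degrees of freedom, for 12 comparisons. Benjamini-Hochberg adjustment ran over all genes, with a threshold of 0.05. Titles give the sorting run, and arrays that share a run are of the same treatment. The 9 same-run control pairs had deviation correlations from 0.12 to 0.36, and the 10 tamoxifen pairs from -0.16 to 0.50. Pairs of other runs within either treatment ran from -0.32 to 0.41, so the correlations do not show pairing by run among tamoxifen arrays. The script was tested on simulated data. The 10 genes and all gene lists were chosen with earlier results of these data known. Named genes are the 10, up to 4 called genes with the smallest adjusted p per list and comparison, and the 3 genes most like each of the 10. Alternatives were cyclic loess, quantile scaling, the mean of a gene's rows, a trended robust variance, array weights, a fit of only the groups compared, a filter on the dimmest 25 percent, run and replicate blocks, a Gast covariate and each array left out.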

Additional observations from a re-analysis of the deposited data

Results flagged for a closer look

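The 3 tamoxifen groups of 4 arrays were screened for each of the 10 genes. In 4 of these 30 sets, 1 array stood far from the other 3. Chance gives about 1 in 20 for a single set. The sets share arrays and are not independent, so the count cannot be set against that rate. Ghrl read 6.76 on tamoxifen low 3, below the other arrays of that group, all above 10. Tph1 read 6.88 on tamoxifen high 1 and 5.86 on tamoxifen low 4, and Rfx6 read 5.51 on tamoxifen high 1, each above the rest of its group. Gast was 12.66 on tamoxifen high 1 and 12.40 on tamoxifen low 4, and its part in these values was not tested.

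Sst differed with tamoxifen in opposite directions in 2 gates, and neither difference passed. In low cells every tamoxifen array lay below the control arrays (-0.73, limma adjusted p = 0.64), and 21.2% of all genes had no overlap there. In negative cells every tamoxifen array lay above them (1.61, adjusted p = 0.39), beside 15.3% of all genes without overlap. The interaction of low minus negative cells gave -2.34 (limma adjusted p = 0.51).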

How the results depend on the processing

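None of the log2 differences that passed changed sign under any alternative tried. Leaving out 1 array kept the direction and side of the threshold in 956 of 1050 results, and the other settings in 1150 of 1188. The number of the 10 genes called for tamoxifen in negative cells (0) became 1 with array weights and 3 with only the groups compared, and ran from 0 to 1 with 1 array left out. In control high against low cells (2) it became 1 with a trended robust variance, and Rfx6 was added with only the groups compared. The number there ran from 0 to 2 with 1 array left out. In control high against negative cells (2) it became 4 with only the groups compared and ran from 1 to 2. In tamoxifen high against low cells (0) it ran from 0 to 1. In tamoxifen low against negative cells (1) it became 2 with array weights and ran from 0 to 1. The low minus negative interaction (0) gave 1 with array weights, 1 with only the groups compared, and 0 to 1 with 1 array left out. Causes were not tested. Over all genes, array weights moved the calls for tamoxifen in negative cells from 515 to 1621, and a fit of only the groups compared moved those in high cells from 606 to 12. Cyclic loess moved the share of higher calls in tamoxifen high against low cells from 45.2% to 64.4%. Same-numbered arrays of the other treatment had deviation correlations from -0.22 to 0.21, so those numbers do not pair arrays. With them as a replicate block, calls over all genes for tamoxifen went from 606 to 1128 in high and from 515 to 845 in negative cells, and none of the 10 genes passed. With the run as a replicate block within a treatment, Isl1 in control high against negative cells passed at -0.98 (limma adjusted p = 0.032), and no other call among the 10 genes changed. Dim probes (Neurod1, Pax6 and most arrays of Neurog3 and Nkx2-2) give bounds only.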
